A study of Mus musculus with 8 samples.

Results

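Transcripts of 40 genes of autophagy were followed in hand-picked pancreatic islets of mice without and with a working gene for insulin-degrading enzyme. The 40 genes were chosen by name and matched among the 55487 gene identifiers of each deposited table, and all 40 were found. They cover 5 genes of the ULK kinase complex, 6 of the class III phosphatidylinositol 3-kinase complexes, 6 of membrane supply and lipid transfer, and 10 of ubiquitin-like conjugation and processing. The remainder are 5 LC3 and GABARAP genes, 7 cargo receptor genes and the transcription factor gene Tfeb. The Ide-/- group held 3 samples (replicates 1 to 3) and the Ide+/+ group held 5 (replicates 1 to 5). By the labels all samples came from C57BL/6J female mice that ate a diet with 60 kcal% fat for 2 weeks, started at 10 weeks of age. The deletion was not described further in the labels, so the cells that had lost the gene, beyond the islets measured here, are not given, and the labels do not say how many animals gave each sample. If some samples shared an animal, the p-values measure only the spread between these samples.

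Autophagy carries cytoplasm, protein aggregates and organelles to the lysosome inside a double membrane, the autophagosome. The ULK kinase complex starts the process, the class III phosphatidylinositol 3-kinase complex marks the forming membrane with a lipid, and ATG9, ATG2 and VMP1 bring lipid to it. A pair of enzyme cascades then couples ATG12 to ATG5 and proteins of the LC3 and GABARAP family to the membrane lipid phosphatidylethanolamine, and cargo receptors bind both cargo and these coupled proteins. In mice, loss of Atg7 in beta cells is known to impair insulin secretion and the response of the islet to a high-fat diet.

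Library depth ranged from 7143415 to 17445935 expected counts in Ide-/- libraries and from 19277269 to 33371642 in Ide+/+ libraries. Ide itself checked the labels, with 0.167, 0.285 and 0.367 CPM (counts scaled to library size with TMM) in Ide-/- libraries against 39.2, 19.5, 20.3, 28.3 and 27.5 CPM in Ide+/+ libraries. A list of 33 markers of acinar cells, the exocrine cells around the islets, took 0.802% to 1.79% of counts in Ide-/- libraries and 26.4% to 45.7% in Ide+/+ libraries, and all 33 were called lower. Within Ide+/+ the acinar share was 26.4% and 26.7% in replicates 2 and 3 and 42.2% to 45.7% in replicates 1, 4 and 5. Of 12 beta cell markers 0 were called by edgeR (1 at an unadjusted p under 0.05), and they took 13.5% to 21.9% of counts in Ide-/- libraries and 1.71% to 7.79% in Ide+/+ libraries. Of 12 macrophage markers 11 were called lower, and of 12 duct markers 10 were. All libraries are labelled female, yet Ide+/+ replicate 1 alone had Xist reads in number (692 counts, at most 11 elsewhere) and 0 counts of the Y-linked Ddx3y, which had 503 to 2139 counts in the other 7 libraries. These counts go with the female label only in Ide+/+ replicate 1, and against it in the other 7, which include all 3 Ide-/- libraries. Ide+/+ replicate 1 also stood apart in the autophagy genes, as described below. Fewer cells of a type and less RNA per cell cannot be told apart in bulk islets.

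Few of the autophagy genes were called as changed by edgeR. In the fit over all 16266 tested genes, 4 of the 40 passed an adjusted p under 0.05 (edgeR quasi-likelihood test, Benjamini-Hochberg adjustment), against 21.1% of all tested genes. Ulk2 rose, and Map1lc3a, Calcoco1 and Atg4b fell. All 40 passed the low-count filter, which asks for a minimum level in 3 libraries. In 39 of the 40 all 3 Ide-/- libraries reached that level, and Tfeb reached it in 2 Ide-/- and 3 Ide+/+ libraries, so it passed through Ide+/+, where it was higher. The median log2 fold change, Ide-/- over Ide+/+, was -0.23 over the 40 genes and -0.01 over all genes tested. The log2 fold change was below 0 in 28 of the 40 and in 8202 of all 16266 tested genes. An unadjusted p under 0.05 was found for 11 of the 40 and for 5877 of the 16266. In 14 of the 40 the CPM values of the genotypes did not overlap, 4 with Ide-/- above and 10 with Ide-/- below, where 33.0% of all tested genes had groups that did not overlap (17.4% above and 15.6% below). The share called lay below that of all genes, and the share without overlap lay near it. The acinar share moved with the genotype in every library, and with that share as a covariate edgeR, the only tool used for this fit, called 0 of the 40 (10 at an unadjusted p under 0.05) and 0.0738% of all genes. Genotype and acinar share cannot be told apart, as every Ide-/- library had a lower share than every Ide+/+ library.

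The number of autophagy genes called varied with the setting, as did that of all genes. RLE size factors, TMM without acinar genes and limma-voom each called the same 4 genes, where 20.9%, 21.1% and 21.5% of all genes were called. DESeq2 called 6 (26.0% of all genes), scaling to secretory granule genes called 1 (10.2%), and edgeR without the low-count filter called 3 (11.2%). Without Ide+/+ replicates 1 to 5 in turn, 5, 5, 3, 2 and 4 of the 40 were called, against 26.7%, 19.9%, 18.7%, 13.1% and 18.7% of all genes. Without Ide-/- replicates 1 to 3 in turn, 2, 1 and 1 of the 40 were called, against 10.8%, 9.36% and 9.07% of all genes.

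**Figure D1:**
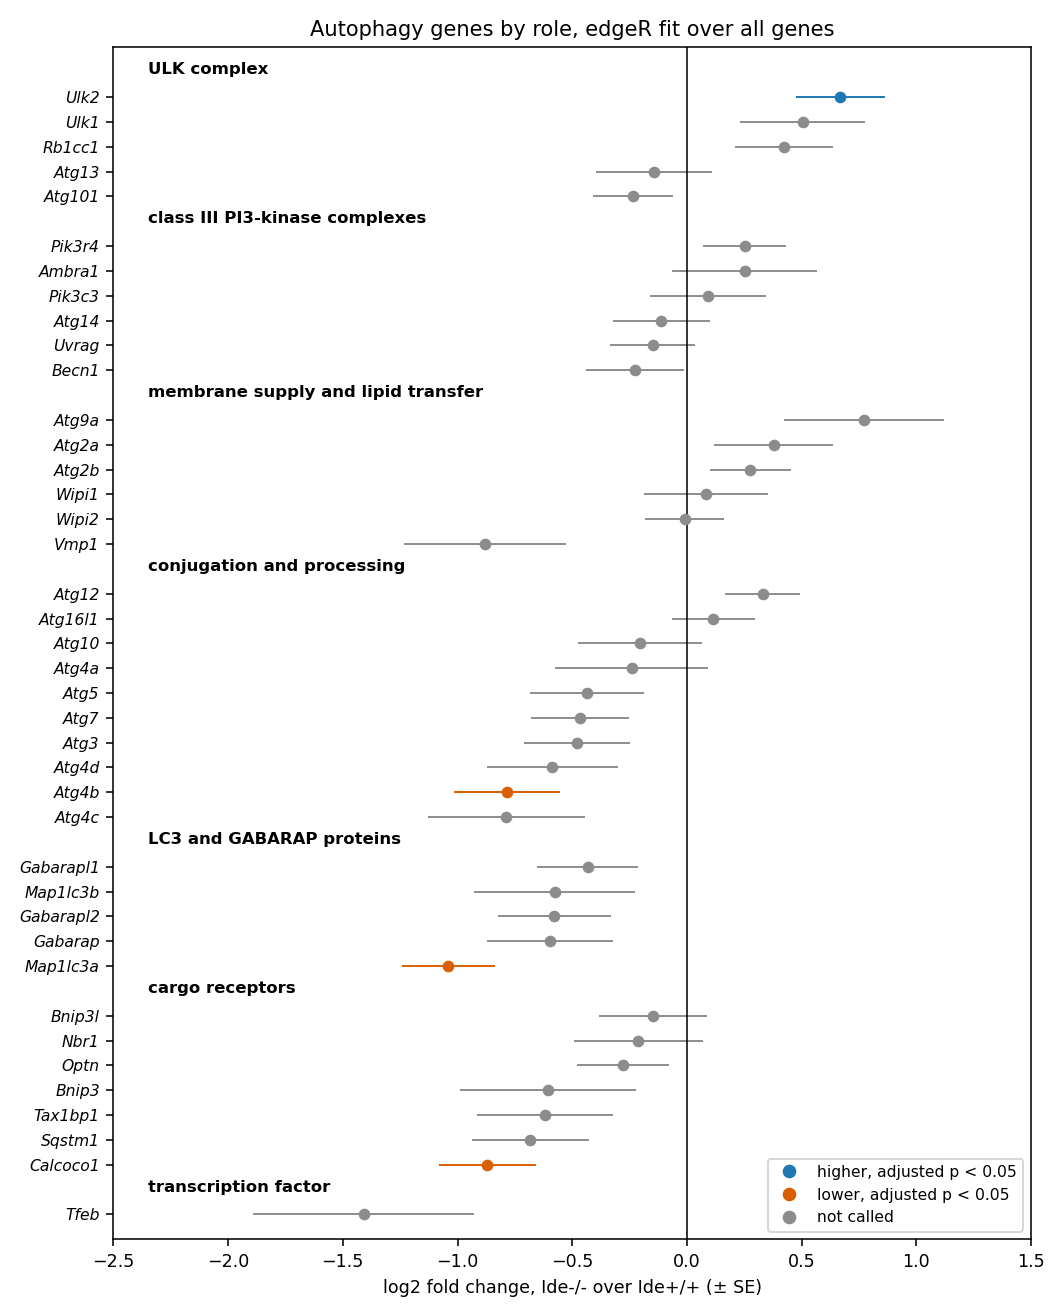
Log2 fold change of each of the 40 autophagy genes, Ide-/- over Ide+/+ (x axis, points with SE bars), grouped by role down the page. 1 gene, Ulk2, was called higher and 3 were called lower (Atg4b, Map1lc3a and Calcoco1), and all 5 LC3 and GABARAP genes and all 7 cargo receptor genes lie left of 0 on this TMM scale, whereas on log2(TPM + 1) values only Map1lc3a of these 12 had a negative change.

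The direction of most members depended on the scale. TPM, the deposited length-corrected share of the library, is not corrected for the large acinar share of Ide+/+ libraries. On log2(TPM + 1) values tested with limma, 10 of the 40 were called higher and 0 lower (16 at an unadjusted p under 0.05), and the median of all tested genes moved to 0.50, with 36.4% of all genes called higher and 2.55% lower, 39.0% together. The median of the 40 genes was 0.53 on that scale. Relative to the median of all genes, 21 of the 40 lay above and 19 below. The 10 called on that scale were Ulk1, Ulk2, Rb1cc1, Pik3c3, Pik3r4, Wipi1, Atg2b, Atg12, Nbr1 and Bnip3l. In 12 of the 40 the TPM values of Ide-/- libraries lay above all Ide+/+ libraries and in 0 below, against 39.3% and 2.8% of all tested genes, 42.1% together. Ulk2 was the only gene of the 40 called in the same direction on both scales. Map1lc3a, Atg4b and Calcoco1 lay below the median of all genes on log2(TPM + 1) values, with differences from it of -0.61, -0.40 and -0.32, but were not called there.

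Sequence 5′ of the start was examined for the genes called, since they differ in direction. RefSeq promoters of GRCm38.p6 (250 bases before to 50 after the start) were matched for 33 of the 40 symbols, among them Ulk2, Atg4b and Calcoco1. The sequences of these 3 called genes are given with that of Atg3, whose promoter held 2 E-boxes of the type bound by TFEB, as lower case with every match to a searched motif in capitals.
Ulk2 (chr11:61855043-61855342, minus strand): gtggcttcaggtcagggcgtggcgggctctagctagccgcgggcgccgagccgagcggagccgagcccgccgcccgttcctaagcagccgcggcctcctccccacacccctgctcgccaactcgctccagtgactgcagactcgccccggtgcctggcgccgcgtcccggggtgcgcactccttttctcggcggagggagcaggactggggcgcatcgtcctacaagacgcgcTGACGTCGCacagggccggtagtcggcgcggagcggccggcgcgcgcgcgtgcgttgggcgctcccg
Atg4b (chr1:93754655-93754954, plus strand): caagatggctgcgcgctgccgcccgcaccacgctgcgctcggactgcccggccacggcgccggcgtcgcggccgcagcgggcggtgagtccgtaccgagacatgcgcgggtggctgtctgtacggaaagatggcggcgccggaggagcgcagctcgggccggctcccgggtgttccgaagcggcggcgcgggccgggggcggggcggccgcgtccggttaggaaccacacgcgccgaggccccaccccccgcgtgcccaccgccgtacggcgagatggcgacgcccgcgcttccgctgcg
Calcoco1 (chr15:102722129-102722428, minus strand): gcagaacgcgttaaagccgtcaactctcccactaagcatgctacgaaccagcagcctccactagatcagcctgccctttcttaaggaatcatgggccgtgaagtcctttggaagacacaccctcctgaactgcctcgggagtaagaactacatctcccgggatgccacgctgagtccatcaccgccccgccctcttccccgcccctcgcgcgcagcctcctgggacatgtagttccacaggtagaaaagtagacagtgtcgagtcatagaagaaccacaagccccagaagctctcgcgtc
Atg3 (chr16:45158579-45158878, plus strand): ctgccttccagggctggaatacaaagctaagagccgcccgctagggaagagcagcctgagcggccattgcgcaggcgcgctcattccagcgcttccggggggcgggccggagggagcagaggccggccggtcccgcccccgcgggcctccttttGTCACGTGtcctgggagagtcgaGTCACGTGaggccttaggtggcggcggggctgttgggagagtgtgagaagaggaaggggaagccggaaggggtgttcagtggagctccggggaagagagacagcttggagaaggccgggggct
The capitals in Ulk2 mark the antioxidant response element TGACNNNGC and those in Atg3 the E-box GTCACGTG of the CLEAR element, the motif of TFEB. The promoters of Atg4b and Calcoco1 held none of the searched letters in this window. The window of Atg4b lies inside the gene, whose annotation begins at 93751500 on the plus strand. Sequence 5′ of that annotated start was not searched.

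Both strands were searched, and a gene counted once if any of its promoters held the motif. GTCACGTG was in the promoters of 3 of 33 autophagy genes (Atg3, Atg7 and Atg14), or 9.09%, and in 2.55% of 27025 genes. The promoters matched for Atg7 (chr6:114670846-114671145) and Atg14 (chr14:47568385-47568684) lie inside the annotated genes. The annotation of Atg7 begins at 114643097 on the plus strand, and that of Atg14 at 47570649 on the minus strand. The shorter palindrome CACGTG, which every GTCACGTG contains, was in 5 of 33 (15.2%, the same 3 genes with Atg5 and Bnip3) and in 8.09% of all genes. TGACNNNGC was in 5 of 33, also 15.2%, which were Ulk2, Atg13, Map1lc3b, Tax1bp1 and Vmp1, and in 14.0% of all genes. TGACGTCA, the cAMP response element, was in 1 (Atg5) and in 2.03% of all genes. The ATF4 composite element TGATGNAAT and the FOXO element GTAAACA were in 0 of the 33, and in 1.08% and 4.05% of all genes. Promoters of the autophagy genes had a median GC content of 60.0%, against 52.7% over all genes. None of the 5 genes with an E-box was called, and their log2 fold changes on the TMM scale ran from -0.11 for Atg14 to -0.60 for Bnip3. On log2(TPM + 1) values all 5 were above 0, from 0.40 for Atg3 to 0.53 for Atg14, so their direction depended on the scale.

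In the ULK complex, Ulk2 rose in Ide-/- islets. Ulk2 (ENSMUSG00000004798; GRCm38 chromosome 11, 61775649 to 61855073, minus strand) encodes one of the 2 kinases at the head of the pathway. It had 9.61, 8.62 and 12.3 CPM in Ide-/- libraries against 4.91, 6.57, 6.40, 6.77 and 7.08 CPM in Ide+/+ libraries, and all Ide-/- values lay above all Ide+/+ values. Its log2 fold change reached 0.67, with an SE of 0.20 and an adjusted p of 0.0318. The call was lost without Ide+/+ replicate 3 or 4 or any 1 of the Ide-/- libraries, with an adjusted p of up to 0.138. Its partner kinase gene Ulk1 had 10.4 ± 1.80 CPM in Ide-/- (SD, n = 3) and 7.28 ± 2.42 CPM in Ide+/+ (SD, n = 5) and was not called (log2 fold change 0.50, SE 0.27, adjusted p = 0.206). Rb1cc1, the gene of the scaffold FIP200, was the most abundant member of the complex by TPM. It had 52.4, 48.1 and 39.7 CPM in Ide-/- libraries against 26.7, 29.2, 34.7, 41.2 and 42.8 CPM in Ide+/+ libraries, and the groups overlapped (log2 fold change 0.42, SE 0.21, adjusted p = 0.171). Atg13 and Atg101, whose proteins form the adaptor pair of the complex, had log2 fold changes of -0.14 and -0.23 and were not called. Atg101 had 11.4, 11.5 and 11.7 CPM in Ide-/- libraries and 11.7 to 16.1 CPM in Ide+/+ libraries.

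None of the 6 genes of the class III phosphatidylinositol 3-kinase complexes was called by edgeR (0 at an unadjusted p under 0.05), nor by DESeq2 or limma-voom, while limma on log2(TPM + 1) called Pik3c3 and Pik3r4 higher. Their log2 fold changes ran from -0.23 to 0.25. Becn1, the gene of the Beclin 1 subunit, was the most abundant. It had 53.5, 55.8 and 57.4 CPM in Ide-/- libraries against 83.4, 54.8, 52.8, 61.5 and 73.2 CPM in Ide+/+ libraries. The groups overlapped, and the 2 highest values were those of Ide+/+ replicates 1 and 5 (log2 fold change -0.23, SE 0.21, adjusted p = 0.469). The catalytic subunit gene Pik3c3 had 16.0 ± 0.36 CPM in Ide-/- (SD, n = 3) and 15.1 ± 5.44 CPM in Ide+/+ (SD, n = 5). Pik3r4, of the regulatory subunit VPS15, had 7.79 to 8.27 CPM in Ide-/- libraries and 6.01 to 7.64 CPM in Ide+/+ libraries, which did not overlap, with a log2 fold change of 0.25 (adjusted p = 0.341). Atg14 and Uvrag, whose proteins take turns as the subunit that directs the complex to autophagosomes or endosomes, had log2 fold changes of -0.11 and -0.15. Ambra1, a scaffold that links the complex to ULK1, had 7.31 ± 0.48 CPM in Ide-/- (SD, n = 3) and 6.00 ± 2.58 CPM in Ide+/+ (SD, n = 5).

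None of the 6 genes of membrane supply and lipid transfer was called by edgeR (2 at an unadjusted p under 0.05), nor by DESeq2 or limma-voom, while limma on log2(TPM + 1) called Wipi1 and Atg2b higher. The 2 with an unadjusted p under 0.05 were Atg9a and Vmp1, with opposite signs. Vmp1, the gene of an ER membrane protein that moves lipid to the growing autophagosome, had 30.7, 28.7 and 29.8 CPM in Ide-/- libraries against 99.8, 29.6, 34.7, 49.7 and 61.2 CPM in Ide+/+ libraries. The Ide-/- libraries lay close together, and Ide+/+ replicates 2 and 3, with acinar shares of 26.4% and 26.7%, lay near them, whereas replicates 1, 4 and 5, with shares of 42.2% to 45.7%, were higher. Vmp1 was not called (log2 fold change -0.88, SE 0.35, adjusted p = 0.0939), and without Ide+/+ replicate 2 Vmp1 was called (adjusted p = 0.0387). Atg9a, the gene of the transmembrane protein that carries lipid scramblase activity, had 14.8, 10.7 and 5.96 CPM in Ide-/- libraries and 2.51 to 8.07 CPM in Ide+/+ libraries (log2 fold change 0.77, SE 0.35, adjusted p = 0.132). Of its annotated exonic bases 31.8% are shared with the overlapping transcript Gm29253 on the same strand, so its counts depend on how reads were divided. The lipid transfer genes Atg2a and Atg2b had log2 fold changes of 0.38 and 0.28, and the phosphoinositide-binding genes Wipi1 and Wipi2 of 0.08 and -0.01. Wipi2 had 21.8 ± 1.52 CPM in Ide-/- (SD, n = 3) and 22.0 ± 2.43 CPM in Ide+/+ (SD, n = 5).

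Of the 10 genes of conjugation and processing, 1 fell and 9 were not called, and 8 of the 10 had a log2 fold change below 0, with a median of -0.45. Atg4b (ENSMUSG00000026280; chromosome 1, 93751500 to 93790610, plus strand), the protease that trims LC3 and GABARAP proteins before coupling and frees them afterwards, fell. It had 12.8, 14.5 and 8.62 CPM in Ide-/- libraries against 28.9, 18.2, 20.2, 18.8 and 17.9 CPM in Ide+/+ libraries. All Ide-/- values lay below all Ide+/+ values, and Ide+/+ replicate 1 was the highest library (log2 fold change -0.78, SE 0.23, adjusted p = 0.0333). The call was lost without Ide+/+ replicate 4 or any 1 of the Ide-/- libraries, with an adjusted p of up to 0.135. The other protease genes, Atg4a, Atg4c and Atg4d, had log2 fold changes of -0.24, -0.79 and -0.59 and were not called. Atg4a shared 51.2% of its transcripts' 50-base stretches with the copy Atg4a-ps, so its counts depend on how reads were divided.

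Atg3, the enzyme that passes LC3 to the lipid, was the most abundant of the conjugation genes by TPM. It had 12.3, 12.2 and 14.5 CPM in Ide-/- libraries against 23.8, 12.3, 14.6, 18.4 and 21.5 CPM in Ide+/+ libraries. The groups overlapped, again with Ide+/+ replicates 2 and 3 nearest the Ide-/- libraries (log2 fold change -0.48, SE 0.23, adjusted p = 0.158). Atg7, the activating enzyme of both cascades, had 4.71 ± 0.80 CPM in Ide-/- (SD, n = 3) and 6.55 ± 1.06 CPM in Ide+/+ (SD, n = 5; log2 fold change -0.47, adjusted p = 0.137). Atg10, the enzyme that couples ATG12 to ATG5, had a log2 fold change of -0.20 and Atg5 of -0.43. Atg12 and Atg16l1, the other components of the ATG12-ATG5-ATG16L1 complex, had log2 fold changes of 0.33 and 0.12. Atg12 had 18.5, 19.3 and 18.2 CPM in Ide-/- libraries, above every Ide+/+ library (13.7 to 17.8 CPM), with an adjusted p of 0.169.

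All 5 LC3 and GABARAP genes had a log2 fold change below 0 on the TMM scale, from -1.04 to -0.43, and 1 of the 5 was called, against 10.6% of all tested genes called lower. Their median was -0.58. On log2(TPM + 1) values 4 of the 5 had the opposite sign, at 0.27 to 0.47, with differences from the median of all genes of -0.23 to -0.03. Map1lc3a (ENSMUSG00000027602; chromosome 2, 155276297 to 155278073, plus strand), which encodes LC3A, fell. It had 9.24, 11.3 and 10.8 CPM in Ide-/- libraries against 24.3, 17.0, 17.8, 25.3 and 23.2 CPM in Ide+/+ libraries. The groups were well apart, and within Ide+/+ the 2 lowest values were those of replicates 2 and 3. The fold was 0.486 (log2 fold change -1.04, SE 0.20, adjusted p = 0.00512), and the call held without any 1 of the 8 libraries (adjusted p 0.00359 to 0.0341). With libraries scaled to secretory granule genes the adjusted p was 0.0539. No 50-base stretch of its transcripts was shared with another annotated gene.

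Gabarap was the most abundant of all 40 genes by TPM. It had 82.9, 73.3 and 77.0 CPM in Ide-/- libraries against 185, 86.1, 89.5, 119.6 and 107.6 CPM in Ide+/+ libraries. The groups did not overlap, but Ide+/+ replicates 2 and 3 lay close above the Ide-/- libraries (log2 fold change -0.60, SE 0.28, adjusted p = 0.141). In TPM Gabarap had 143.5, 120.6 and 103.2 in Ide-/- libraries against 89.4, 104.0, 102.9, 87.9 and 60.9 in Ide+/+ libraries, so on this scale the groups overlapped and the mean was higher in Ide-/-. Map1lc3b, which encodes LC3B, had 108.5, 115 and 169 CPM in Ide-/- libraries against 260, 114, 122, 186 and 293 CPM in Ide+/+ libraries, and the groups overlapped (log2 fold change -0.58, SE 0.35, adjusted p = 0.259). Gabarapl1 was the member with the smallest spread among Ide-/- libraries, at 38.8, 38.2 and 38.8 CPM, against 42.1 to 73.0 CPM in Ide+/+ libraries. Gabarapl2 had 49.9 ± 3.56 CPM in Ide-/- (SD, n = 3) and 74.6 ± 21.8 CPM in Ide+/+ (SD, n = 5). Neither Gabarapl1 nor Gabarapl2 was called (adjusted p = 0.176 and 0.113).

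The make-up of the family within a library does not depend on library scaling. In summed TPM of the 5 genes, Map1lc3a took 4.78%, 6.45% and 5.31% in Ide-/- libraries against 5.69%, 8.20%, 8.35%, 8.64% and 6.92% in Ide+/+ libraries. Ide+/+ replicate 1 lay between Ide-/- replicates 3 and 2, so the groups overlapped. The shares of the other 4 genes also overlapped between the genotypes, with Gabarap at 37.5% ± 2.67 in Ide-/- (SD, n = 3) and 34.3% ± 3.99 in Ide+/+ (SD, n = 5), and Map1lc3b at 28.7% ± 5.70 in Ide-/- and 30.3% ± 7.65 in Ide+/+. No test was run on these shares, which were chosen after the values were seen.

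Of the 7 cargo receptor genes, 1 fell and 6 were not called. All 7 had a log2 fold change below 0 on the TMM scale, from -0.87 to -0.15, whereas all 7 were above 0 on log2(TPM + 1) values, where Nbr1 and Bnip3l were called higher. Calcoco1 (ENSMUSG00000023055; chromosome 15, 102706777 to 102722178, minus strand), a receptor for turnover of the ER and the Golgi in human cells, fell. It had 12.8, 10.3 and 8.34 CPM in Ide-/- libraries against 25.3, 19.1, 17.6, 16.8 and 17.6 CPM in Ide+/+ libraries, and the groups did not overlap. This amounted to a log2 fold change of -0.87, with an SE of 0.21 and an adjusted p of 0.0141. The call was lost without Ide-/- replicate 2 or 3 (adjusted p of up to 0.0693), and Ide+/+ replicates 2 and 3 did not lie apart from replicates 4 and 5.

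Sqstm1, which encodes the receptor p62 for ubiquitin-tagged cargo, was the most abundant receptor gene by TPM. It had 81.8, 64.3 and 54.2 CPM in Ide-/- libraries against 151, 99.3, 94.5, 111 and 81.9 CPM in Ide+/+ libraries, and the highest Ide-/- value lay just under the lowest Ide+/+ value. It was not called by edgeR (log2 fold change -0.68, SE 0.26, adjusted p = 0.0758) and was called lower by DESeq2. In TPM it had 94.3, 70.4 and 57.2 in Ide-/- libraries against 38.1, 70.2, 65.8, 46.5 and 28.6 in Ide+/+ libraries. These values overlapped, with the higher mean in Ide-/-, and Sqstm1 was not called on that scale. Nbr1, a receptor related to p62, had 45.5 ± 4.86 CPM in Ide-/- (SD, n = 3) and 52.7 ± 20.9 CPM in Ide+/+ (SD, n = 5). Tax1bp1 and Optn, which bind ubiquitin on aggregates, bacteria and mitochondria, had log2 fold changes of -0.62 and -0.28, and in both the Ide-/- CPM values lay below all Ide+/+ values without a call (adjusted p = 0.154 and 0.344). The mitochondrial receptor genes Bnip3 and Bnip3l, both known as hypoxia-induced, had log2 fold changes of -0.60 and -0.15 and were not called. Bnip3 was the member with the largest spread among Ide+/+ libraries, at 123 CPM in replicate 1 and 35.2 to 56.7 CPM in the other 4, against 32.6, 41.9 and 42.9 CPM in Ide-/- libraries. Bnip3 and Bnip3l shared 47.2% and 20.8% of their 50-base stretches with other annotated genes, so their counts depend on how reads were divided.

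**Figure D2:**
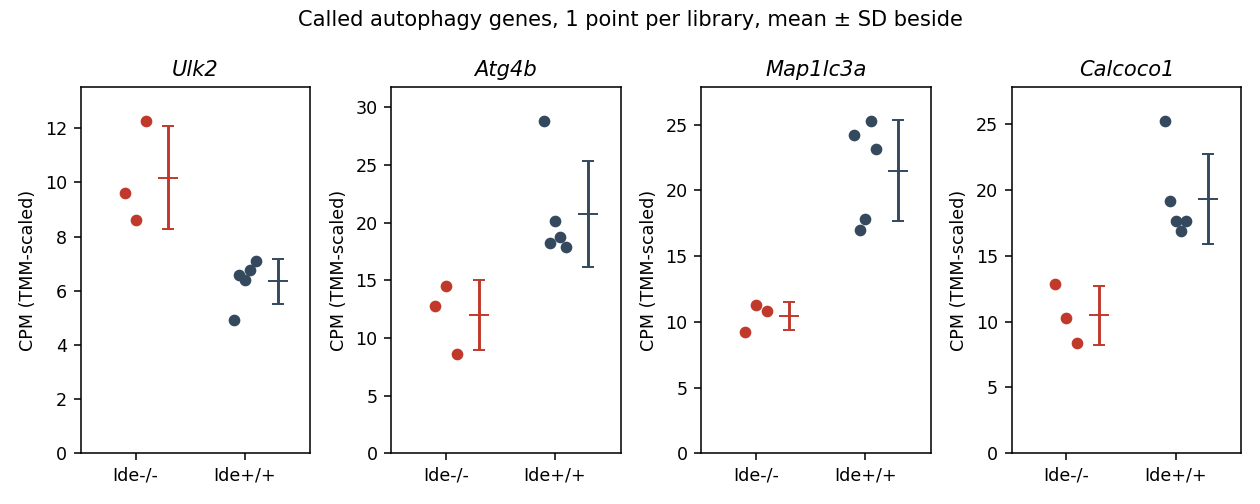
The 4 called genes in each library as CPM with TMM scaling, Ide-/- left and Ide+/+ right, with mean ± SD beside the points. In none of the 4, which were picked by a test on the same counts, do the genotypes overlap in CPM. Of all tested genes 33.0% had groups that did not overlap. Ulk2 was higher and Atg4b, Map1lc3a and Calcoco1 were lower in Ide-/- libraries, and in TPM the genotypes overlapped in all of them but Ulk2.

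Tfeb, the gene of the transcription factor that drives lysosome and autophagy genes through the CLEAR element, was the least abundant of the 40 genes. It had 0.362, 0.407 and 0.183 CPM in Ide-/- libraries, on 13, 10 and 2 counts, against 0.301, 0.967, 1.32, 1.06 and 0.644 CPM in Ide+/+ libraries, on 3, 38, 37, 18 and 6 counts. Ide+/+ replicate 1 lay among the Ide-/- libraries and the other 4 Ide+/+ libraries above them. It was not called (log2 fold change -1.41, SE 0.48, adjusted p = 0.0560), but was called without Ide+/+ replicate 1 (adjusted p = 0.0130) and by DESeq2. Its relative Tfe3, which acts on the same element, had 9.62 CPM in Ide-/- and 8.62 CPM in Ide+/+ on average (log2 fold change 0.14, adjusted p = 0.696), and Mitf, the third relative expressed here, had 3.06 CPM in Ide-/- and 2.19 CPM in Ide+/+ (adjusted p = 0.210).

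By TPM, which allows levels of different genes to be compared, the same few genes led in both genotypes. Gabarap (122 ± 20.2 in Ide-/- and 89.0 ± 17.4 in Ide+/+) and Map1lc3b (92.3 ± 10.7 in Ide-/- and 76.7 ± 11.2 in Ide+/+) ranked first and second over all libraries (SD, n = 3 and n = 5). Sqstm1 and Gabarapl2 followed, at means of 74.0 and 63.1 TPM in Ide-/- libraries and of 49.8 and 51.4 TPM in Ide+/+ libraries, and they did not differ beyond their spread. Bnip3l, Becn1, Tax1bp1, Bnip3, Gabarapl1 and Vmp1 had means of 22.8 to 45.0 TPM over all libraries, and Map1lc3a 19.0 TPM. Several others were far lower, with Ulk1, Ulk2, Atg14, Ambra1, Atg2a, Atg4c, Atg7, Atg9a and Optn at means of 1.02 to 2.52 TPM and Tfeb at 0.50 TPM.

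Within Ide+/+ the autophagy genes varied with the library. Ide+/+ replicate 1 had the highest CPM of the 5 Ide+/+ libraries in 20 of the 40 genes, where it was the highest in 32.1% of all tested genes. It lay more than 1 log2 unit above the median of the other 4 Ide+/+ libraries in 6 genes (Bnip3, Atg4c, Vmp1, Atg4a, Tax1bp1 and Nbr1) and more than 1 log2 unit below it in 5 (Tfeb, Atg9a, Ambra1, Ulk1 and Atg2a). Over all tested genes these limits were passed by 7.48% and 19.0%. The median coefficient of variation of the 40 genes was 14.0% among Ide-/- libraries and 26.1% among Ide+/+ libraries, where that of all genes was 18.3% and 30.3%. Without Ide+/+ replicate 1 it was 15.0% among Ide+/+ libraries, and 21.6% over all genes. Without it 5 of the 40 were called, Ulk2 higher and Atg4b, Calcoco1, Map1lc3a and Tfeb lower.

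**Figure D3:**
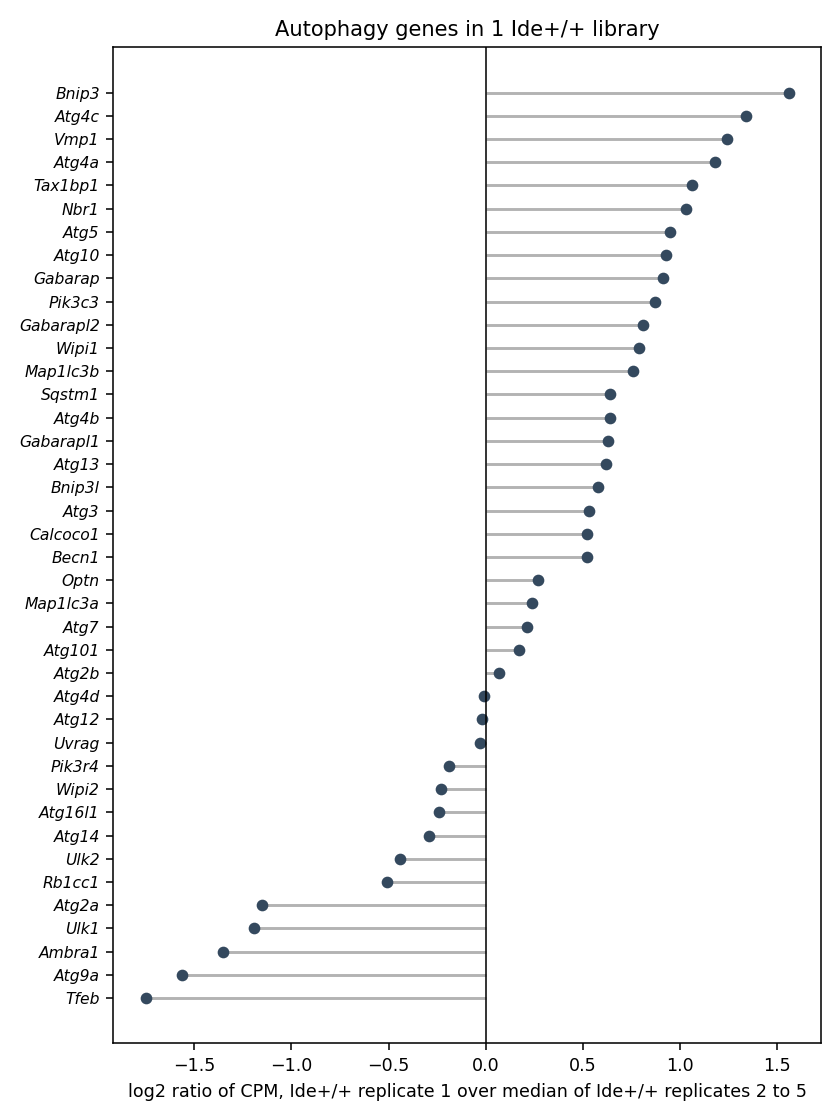
Log2 ratio of the CPM of each autophagy gene in Ide+/+ replicate 1 over the median of Ide+/+ replicates 2 to 5. Bnip3, Atg4c, Vmp1, Atg4a, Tax1bp1 and Nbr1 lie above 1, and Tfeb, Atg9a, Ambra1, Ulk1 and Atg2a lie below -1.

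In 16 of the 40 genes Ide+/+ replicates 2 and 3, the 2 with the lower acinar share, were also the 2 lowest Ide+/+ libraries in CPM, and in 4 genes they were the 2 highest. Over all tested genes these orders were found in 20.6% and 21.6%. The 16 included all 5 LC3 and GABARAP genes, Vmp1, Atg3, Becn1, Tax1bp1, Bnip3 and Bnip3l, and of the called genes only Map1lc3a. The part of the acinar share in these values was not tested. The covariate fit cannot separate it from genotype, as the shares of the genotypes did not overlap.

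The RSEM length of a gene is the mean over its transcripts weighted by their estimated abundance. The lengths of the genotypes did not overlap in 6 of the 40 genes, 2 longer and 4 shorter in Ide-/-, where 10.8% of all tested genes had lengths that did not overlap (4.18% longer and 6.6% shorter). Sqstm1 had 1389, 1361 and 1132 bases in Ide-/- libraries against 1804, 1642, 1609, 1636 and 1550 bases in Ide+/+ libraries. Atg4d had 2125, 2960 and 2669 bases in Ide-/- libraries against 1918, 1806, 1816, 1714 and 1927 bases in Ide+/+ libraries. Becn1 was also longer, at 1975 bases in Ide-/- and 1660 bases in Ide+/+ on average, whereas Pik3r4, Atg2b and Gabarap were shorter with Ide-/- over Ide+/+ ratios of 0.854, 0.849 and 0.935. No test was run on the lengths, so the number without overlap is not read as a trait of the 40 genes. Becn1, Sqstm1 and Atg4d share 43.9%, 17.3% and 19.3% of their exonic bases with the genes Cntd1, Mrnip and Kri1 on the opposite strand, and the strand setting of the counting was not given in the sources used here.

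**Figure D4:**
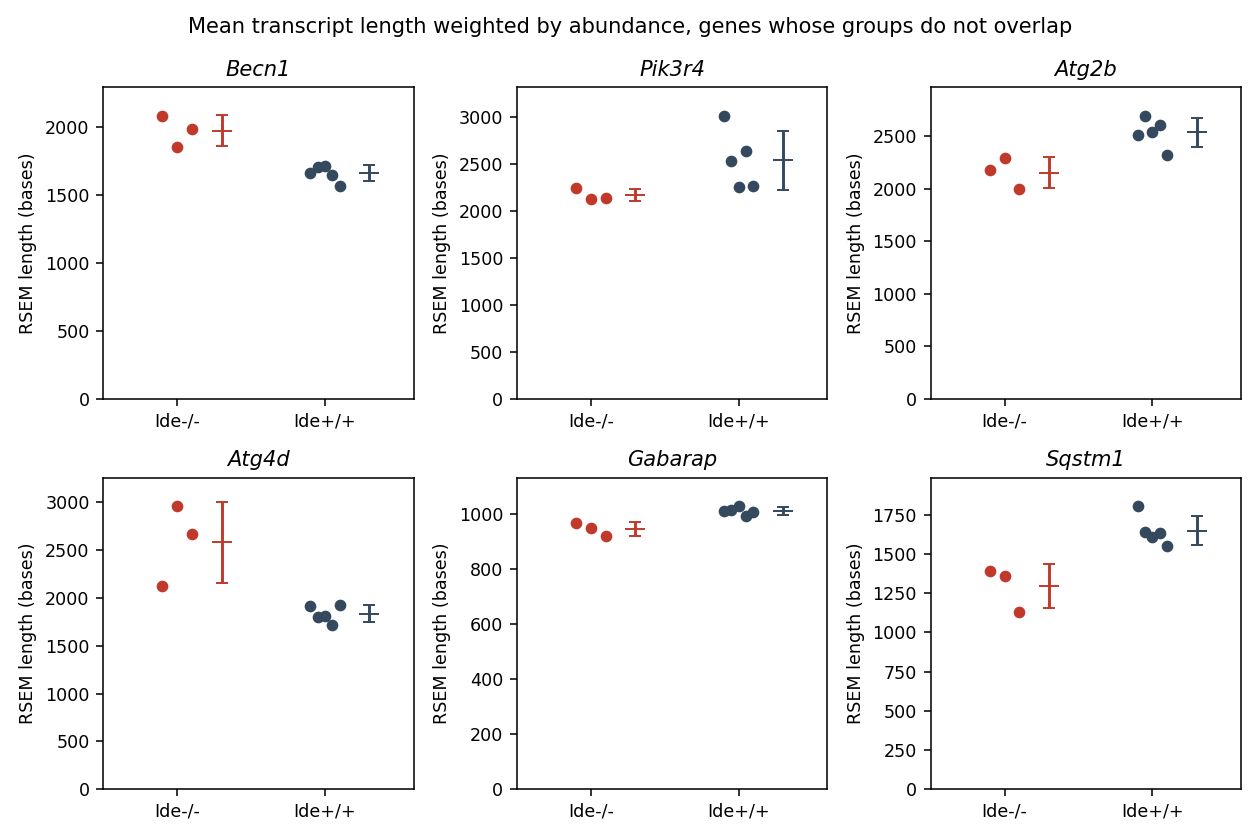
RSEM length in bases of the 6 autophagy genes whose genotypes did not overlap, 1 point per library, Ide-/- left and Ide+/+ right, with mean ± SD beside the points. Becn1 and Atg4d are longer and Pik3r4, Atg2b, Gabarap and Sqstm1 shorter in Ide-/- libraries.

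Beyond the 40 genes, 65 further genes of the pathway were tested, in 4 lists, and 2 rose and 10 fell in Ide-/- islets, where 10.4% of all tested genes rose and 10.6% fell. On log2(TPM + 1) values 18 were higher and 1 was lower, where 36.4% of all tested genes were higher and 2.55% lower. With the acinar covariate edgeR called 0 of the 65 (15 at an unadjusted p under 0.05) and 0.0738% of all genes. Of 13 other genes of the early machinery 1 was called lower, Atg9b, a relative of Atg9a, at 0.109 ± 0.079 CPM in Ide-/- (SD, n = 3) and 0.692 ± 0.34 CPM in Ide+/+ (SD, n = 5), on 1 to 22 counts. It reached the level of the low-count filter in 0 Ide-/- and 3 Ide+/+ libraries, so it was tested only because it was higher in Ide+/+. Of 16 genes of fusion with the lysosome 1 rose and 2 fell. Vps16, of the HOPS tethering complex, had 22.2 ± 0.98 CPM in Ide-/- and 14.7 ± 1.76 CPM in Ide+/+ (log2 fold change 0.59, adjusted p = 0.0276). Vps33a, of the same complex, had 7.76 ± 0.81 CPM in Ide-/- and 13.0 ± 3.35 CPM in Ide+/+ (log2 fold change -0.73, adjusted p = 0.0389), and the SNARE gene Ykt6 had a log2 fold change of -0.90. Of 16 tested other receptors and mitophagy genes 4 fell and 12 were not called. Retreg1, the ER turnover receptor also known as FAM134B, had 6.43, 6.83 and 7.24 CPM in Ide-/- libraries against 245, 47.5, 45.9, 138 and 197 CPM in Ide+/+ libraries. Its log2 fold change was -4.30 (SE 0.61, adjusted p = 0.00105), and within Ide+/+ the values lay lowest in replicates 2 and 3, those with the lower acinar share. With the acinar covariate its log2 fold change was 0.28, not called, whereas limma on log2(TPM + 1) values called it lower. The ER receptor gene Tex264 (-1.03, adjusted p = 0.00706) and the glycogen-binding gene Stbd1 (-1.85, adjusted p = 0.00549) fell too. Phb2, the gene of a mitochondrial inner membrane protein, had 18.4 ± 3.11 CPM in Ide-/- (SD, n = 3) and 28.0 ± 3.07 CPM in Ide+/+ (SD, n = 5) and fell (log2 fold change -0.60, adjusted p = 0.0408). Of 20 upstream regulators 1 rose and 3 fell. Zkscan3, known in human cells as a repressor of autophagy genes, rose (0.73, adjusted p = 0.0442). Prkaa2, a catalytic subunit of AMP-activated kinase, and Sesn2, an inhibitor of mTORC1 signalling, fell by 1.87 and 1.40 on the log2 scale. Trp53inp1, a p53 target that binds LC3, fell by 1.59. It had 13.1 to 15.3 CPM in Ide-/- libraries. In Ide+/+ libraries it had 17.5, 21.2, 21.8, 79.15 and 74.9 CPM, so replicates 4 and 5 lay far above the others. The calls of Ykt6, Vps16, Vps33a, Phb2, Atg9b, Sesn2, Zkscan3 and Trp53inp1 were each lost on leaving out at least 1 library, among them Ide-/- replicate 3 for all 8.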

How the data were processed

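RNA sequencing of hand-picked islets gave 1 table per sample for 3 Ide-/- and 5 Ide+/+ samples. Per the labels' protocols, 100 ng of total RNA entered each library of a low-input kit. Per the submitters' processing notes, STAR 2.7.1a, RSEM 1.3.1 and GRCm38 were used. The sources used here give no annotation release or strand setting. The authors deposited expected counts, which RSEM estimates by dividing reads that match several genes, without normalization. TPM values were deposited by the authors and scale each sample to the same total. FPKM values were deposited by the authors too and were not used. The RSEM lengths were used as deposited. Symbols came from GENCODE M21 on GRCm38, which named 55227 of 55487 identifiers.

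Expected counts were rounded and tested with edgeR 4.0.16 in R 4.3.3 (quasi-likelihood F test, robust, TMM scaling, default low-count filter with a minimum count of 10 and a total of 15, genotype as the only term), with Benjamini-Hochberg adjustment over all tested genes and a call at an adjusted p under 0.05. SE is the log2 fold change over the square root of F. The steps were tested on simulated data. Alternatives used DESeq2 1.42.0, limma 3.58.1 (voom, and log2(TPM + 1) with a pseudocount of 1), other scalings, no filter, an acinar covariate, a replicate block and each library left out. Shared sequence was counted as exact 50-base stretches of GENCODE transcripts on either strand.

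The members, lists and tests were chosen with earlier results of these data known. All 40 members could be named. Values in every library were printed for called members and the most abundant member of each role by TPM. From each further list at most 4 called genes were named, by smallest p, and other genes were named after their values were seen. 1 gene of the further lists is not reported here. Map1lc3c had no matched identifier, and Calcoco2 did not pass the filter. The labels do not say that a replicate number marks a shared animal or day.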

Additional observations from a re-analysis of the deposited data

Results flagged for a closer look

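In a group of 5 libraries, chance alone places 1 library far from the other 4, by the gap test used, in about 1 of 20 independent, normally distributed genes. Among the Ide+/+ libraries 53 genes were examined, which were Ide, the 40 autophagy genes and further pathway genes that were called. For 9 of the 53 1 library stood that far out. The share of all tested genes that stood that far out was not computed. The 9 are therefore not read as a trait of the autophagy genes. Ide+/+ replicate 1 was the highest library in 7 of the 9, and it was the highest Ide+/+ library in 32.1% of all tested genes. It had 28.9 CPM of Atg4b (17.9 to 20.2 in the other 4), 18.6 CPM of Atg4c (6.97 to 8.21) and 25.4 CPM of Atg5 (12.0 to 15.3). It had 113 CPM of Gabarapl2 (61.5 to 69.4), 89.4 CPM of Nbr1 (38.5 to 47.9), 25.3 CPM of Calcoco1 (16.8 to 19.1) and 123 CPM of Bnip3 (35.2 to 56.7). Ide+/+ replicate 5 had the lowest Atg4d, at 8.37 CPM (16.2 to 18.1 in the other 4), and the highest Atg12, at 17.8 CPM (13.7 to 14.4). Ide+/+ replicate 1 is also the library with the highest acinar share, 45.7%. It is the only library whose Xist and Y-linked counts go with the female label, unlike the other 7.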

How the results depend on the processing

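RLE size factors, TMM without acinar genes and limma-voom left all 40 autophagy calls as they were. With secretory granule scaling 0 autophagy genes were higher and 1 was lower (Calcoco1; 8 at an unadjusted p under 0.05), of all genes 762 were higher and 902 lower, and of the 65 further pathway genes 0 were higher. Without the low-count filter 0 autophagy genes and 1 further pathway gene were higher, and with DESeq2 5 were lower. On log2(TPM + 1) values 10 autophagy genes were higher and 0 lower, of all genes 5925 and 415, and of the further pathway genes 18 and 1. With the acinar covariate 0 autophagy genes were higher or lower, of all genes 1 and 11, and of the further pathway genes 0 and 0 (15 at an unadjusted p under 0.05).

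Same-numbered samples of the 2 genotypes did not deviate together (correlations 0.0485, 0.00918 and -0.0934), and no Ide-/- sample correlated best with the Ide+/+ sample of its number. With the replicate block, 0 autophagy genes were higher and 1 lower (Calcoco1), of all genes 465 and 706, and of the further pathway genes 0 and 4. Leaving out 1 library at a time gave 0 to 1 autophagy genes higher and 1 to 4 lower, and 694 to 2141 and 809 to 2139 of all genes, where 1699 and 1727 were called with all 8. Of the further pathway genes it gave 0 to 2 higher and 4 to 13 lower, with none higher without Ide+/+ replicate 4 or any 1 of the Ide-/- libraries.

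These log2 fold changes had the opposite sign on log2(TPM + 1) values: Atg13 0.74, Atg101 0.61, Becn1 0.41, Atg14 0.53, Uvrag 0.52, Wipi2 0.71, Vmp1 0.32, Atg3 0.40, Atg4a 0.69, Atg4b 0.10, Atg4c 0.12, Atg5 0.43, Atg7 0.42, Atg10 0.58, Map1lc3b 0.27, Gabarap 0.47, Gabarapl1 0.47, Gabarapl2 0.31, Sqstm1 0.61, Nbr1 0.95, Optn 0.35, Calcoco1 0.18, Tax1bp1 0.14, Bnip3 0.42, Bnip3l 0.74, Ykt6 0.01, Vps33a 0.16, Phb2 0.33. With the acinar covariate the opposite signs were Atg13 0.41, Atg101 0.39, Becn1 0.74, Pik3r4 -0.42, Ambra1 -1.57, Atg2a -0.41, Atg9a -0.48, Vmp1 1.68, Atg3 0.95, Atg4a 2.09, Atg4c 0.50, Atg5 0.61, Atg10 1.25, Atg16l1 -0.42, Map1lc3b 1.73, Gabarap 0.90, Gabarapl1 0.61, Gabarapl2 0.47, Nbr1 0.98, Optn 0.16, Tax1bp1 0.98, Bnip3 1.90, Bnip3l 1.20, Vps16 -0.01, Vps33a 0.16, Retreg1 0.28, Zkscan3 -0.58, Trp53inp1 1.20. Wipi1 was -0.06 with the replicate block and Wipi2 0.05 with secretory granule scaling. On leaving out 1 library each, these crossed 0: Atg13 -0.30 to 0.00, Atg14 -0.26 to 0.06, Pik3c3 -0.03 to 0.32, Wipi1 -0.10 to 0.28, Wipi2 -0.07 to 0.02, Atg4a -0.45 to 0.05, Atg10 -0.32 to 0.03, Atg16l1 -0.00 to 0.20, Nbr1 -0.31 to 0.06. The cause was not tested for these changes. Depth limits Tfeb, with at most 38 counts in a library, and Atg9b, with at most 22.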
